A study of Mus musculus with 9 samples.

Results

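The genes described here encode antiviral restriction factors, host proteins that block a step of viral replication. The set holds 9 genes chosen by name for that role: Mx1, Mx2, Rsad2, Cmpk2, Bst2, Ifitm2, Ifitm3, Samhd1 and Isg20. Each matched 1 row of the deposited count table, so the set is 9 of 38887 rows, and all 9 passed the filter on low counts with 14363 genes in all. RNA-seq was done on mouse bone marrow-derived dendritic cells, antigen-presenting cells grown from marrow precursors, which were untreated or given lysophosphatidic acid (LPA), a phospholipid that signals through cell surface receptors, for 2 h or 6 h. Each of these 3 groups has 3 libraries. By its title, the series concerns tumour-derived LPA and interferon responses in ovarian cancer. The labels give no mouse strain or genotype, no LPA dose, no vehicle and no collection time for the untreated cells. Whether the replicates are separate mice or cultures is not said, and p-values therefore measure the spread between these samples alone, which may be technical.

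Most restriction factors are interferon-stimulated genes. Type I interferon binds the receptor chains IFNAR1 and IFNAR2, and a complex that includes STAT2 and IRF9 then binds interferon-stimulated response elements (ISREs) near such genes. Dendritic cells commonly keep a low level of these transcripts without infection, maintained by weak constitutive interferon signalling. The 9 proteins act at different points: at viral entry (Ifitm2, Ifitm3), on incoming viral nucleoproteins (Mx1, Mx2), on the nucleotides that polymerases need (Samhd1, Cmpk2, Rsad2), on viral RNA (Isg20) and at the release of new particles (Bst2).

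The ISRE letters searched were GAAA, any 2 bases and GAAA, on both strands, in windows of 300 bases from 250 before to 50 after the RefSeq start site (GRCm38.p6). Windows were available for 7 members, with 9 windows in all because Isg20 has several. A match lay in 1 window of each of 4 members, beside 3.44% of all 32851 windows. The stretches holding the matches are shown because they are the letters these members share and the selection did not use. They are written 5′ to 3′ on the gene's strand, with capitals marking the matches:
Ifitm2, chr7:140955978-140956027, minus strand: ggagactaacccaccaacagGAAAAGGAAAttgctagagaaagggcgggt
Ifitm3, chr7:141010714-141010743, minus strand: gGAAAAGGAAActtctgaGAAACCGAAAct
Bst2, chr8:71537567-71537622, minus strand: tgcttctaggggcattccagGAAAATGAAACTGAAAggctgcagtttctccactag
Rsad2, chr12:26456543-26456592, minus strand: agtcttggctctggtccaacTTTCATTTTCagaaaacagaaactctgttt

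Counted from the start site, with negative positions before it, the match begins at -46 in Ifitm2 and at 3 and 20 in Ifitm3. The letters of the Ifitm2 match and of the Ifitm3 match at 3 are identical (GAAAAGGAAA). Bst2 has matches at -130 and -124 that overlap each other, and the Rsad2 match at -120 reads on the opposite strand. The windows of Cmpk2, Samhd1 and Isg20 held no ISRE match. The letters TTC, any 3 bases and GAA are those of the interferon gamma activated site (GAS). They occurred in the windows of Bst2, Ifitm3 and Samhd1 and in 1 window of Isg20, beside 8.3% of all windows. In Bst2 and Ifitm3 they overlap an ISRE match. A match describes letters and is not evidence of binding.

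The libraries held 29628817 to 84596899 estimated counts, and the 9 members together took 0.129% to 0.137% of them untreated, 0.106% to 0.126% at 2 h and 0.0721% to 0.080% at 6 h. Replicate 2 at 2 h, the deepest library, stood apart from its group on the first principal component of log2 CPM (counts scaled to equal library size) (9.74, against -4.67 and -12.4), on the side of the 6 h libraries, which lay at 35.7 to 40.6. It was the lowest 2 h library for 7 members, and values at 2 h are therefore also given without it. Of 12 conventional dendritic cell markers 11 reached a mean of 1 CPM. At 6 h 3 of these 11 were lower than untreated and 2 higher, beside 25.7% and 26.4% of all genes tested. Itgax was at 1320 to 1388 CPM untreated, 1248 to 1363 at 2 h and 1041 to 1096 at 6 h. All 10 macrophage markers reached 1 CPM as well, and at 6 h 5 were lower and 4 higher, beside the same shares of all genes. Their summed level was 3963 to 4024 CPM untreated, 4949 to 5084 at 2 h and 5175 to 5431 at 6 h, with most of the difference from Cd14 (106 ± 10.6, 856 ± 103 and 1078 ± 33.1 CPM, SD, n = 3). The other 9 summed to 3857 to 3907, 4130 to 4210 and 4114 to 4322 CPM. The part of these markers in the members' changes was not tested. The summed markers of neutrophils stayed at or under 7.4 CPM, and no marker of T and NK cells, B cells or mast cells reached 1 CPM in any library. Of 6 stromal markers, Pdgfra alone did, at 1.06 to 1.45 CPM at 6 h against 0.233 to 0.568 untreated (log2 fold change 1.77 ± 0.39, adjusted p = 0.00268). In such bulk RNA, fewer cells of a type and less RNA per cell cannot be told apart.

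The effect of LPA on the set was examined first at 2 h and then at 6 h, each against the same 3 untreated libraries. At 2 h Mx1, Mx2 and Cmpk2 fell, Ifitm2 rose, and the other 5 members did not pass the test. At 6 h 8 members had fallen, from 7.80-fold for Mx2 to 1.54-fold for Ifitm3, and Ifitm2 had risen 1.51-fold. In the quasi-likelihood test of edgeR (Benjamini-Hochberg adjusted p under 0.05), 3 of 9 members were thus lower at 2 h, where 19.2% of all genes tested were, and 1 was higher, where 19.3% were. At 6 h 8 were lower, beside 25.7% of all genes, and 1 was higher, beside 26.4%. Since so many genes passed, a second test asked for a change of more than 1.5-fold. It called 3 members lower at 2 h (Mx1, Mx2 and Cmpk2), beside 1.18% of all genes. At 6 h it called 7, all but Ifitm2 and Ifitm3, beside 4.46%. The groups did not overlap for the same genes that the first test called: 3 members were lower in every library at 2 h (24% of all genes) and 1 was higher (24.3%), and at 6 h these numbers were 8 (31%) and 1 (32%). The median log2 fold change of the members was -0.17 at 2 h and -1.43 at 6 h, where that of all genes was -0.00 and 0.01. Without replicate 2 at 2 h the same 4 members were called at that time, and the log2 fold changes of those not called moved toward 0, to -0.02 for Bst2, -0.07 for Ifitm3, -0.12 for Isg20 and -0.03 for Rsad2, with Samhd1 at 0.03. Ifitm2 was then at 0.28.

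**Figure D1:**
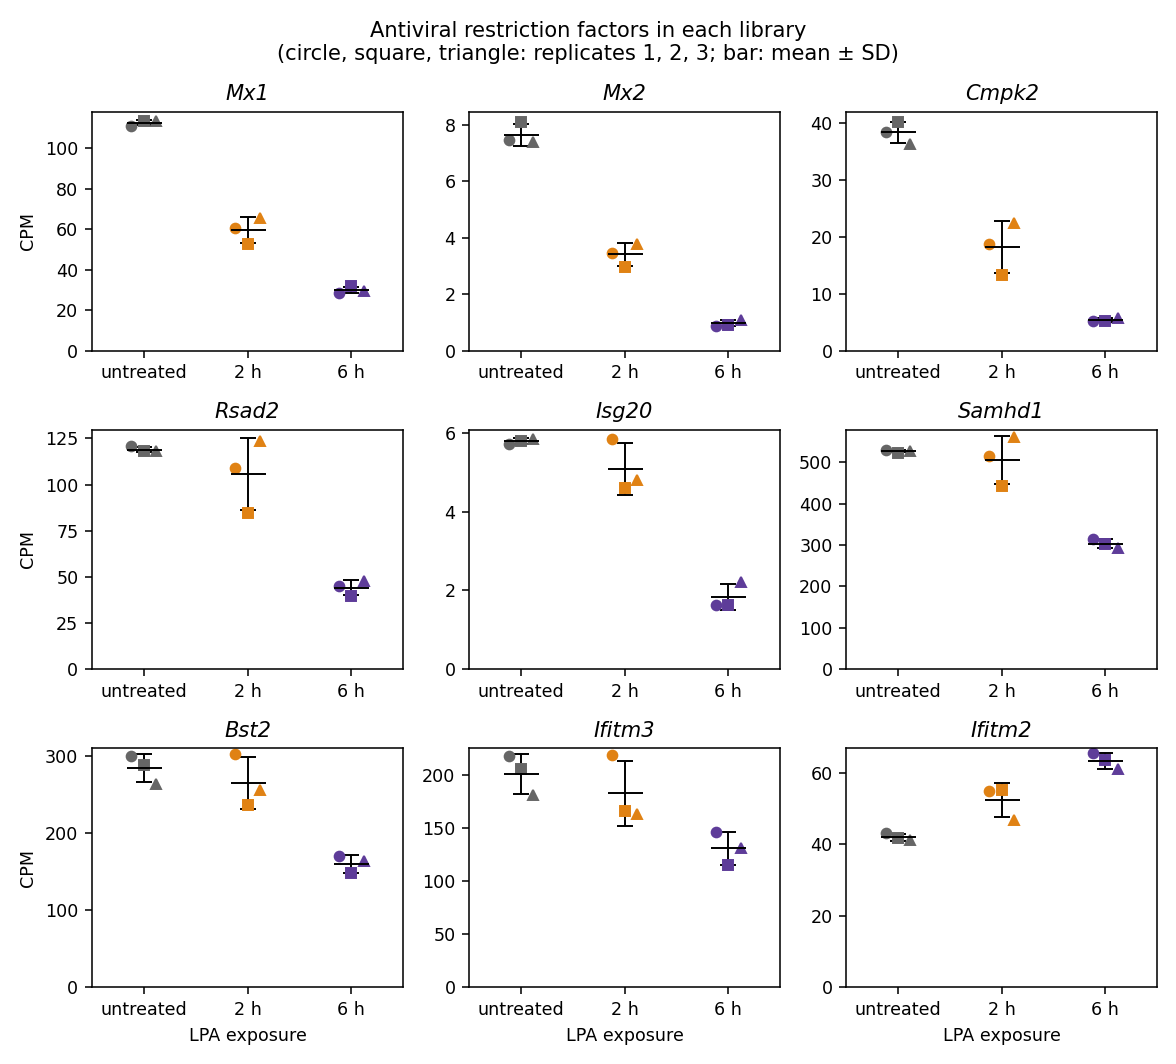
Level of each member in each library, in CPM (TMM-scaled, linear axes from 0), by LPA exposure, with circles, squares and triangles for replicates 1, 2 and 3 and bars for the mean ± SD (n = 3). In every panel the 6 h libraries lie apart from the untreated ones, above them for Ifitm2 (61.1 to 65.5 CPM) and below them for the other 8 genes.

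Mx1 and Mx2 encode dynamin-like GTPases that assemble on viral nucleoproteins, Mx1 in the nucleus and Mx2 in the cytoplasm in rodents. Many laboratory mouse strains carry defective Mx1 alleles, so these transcript levels say nothing of working protein. In GRCm38 Mx1 lies at chr16:97447035-97462907 on the minus strand and Mx2 at chr16:97535308-97560900 on the plus strand. Mx1 was at 111, 113 and 113 CPM in the untreated libraries, at 60.5, 52.9 and 65.7 CPM at 2 h, and at 28.5, 31.7 and 29.6 CPM at 6 h. The 3 groups did not overlap, and the spread within each was small against the distance between them. The log2 fold change of Mx1 was -0.92 ± 0.07 (SE) at 2 h (adjusted p = 1.06e-06) and -1.91 ± 0.07 at 6 h (adjusted p = 8.56e-09). Without replicate 2 at 2 h the first value was -0.84.

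Mx2 was far less abundant, at 7.46, 8.10 and 7.4 CPM untreated, 3.47, 2.98 and 3.78 CPM at 2 h, and 0.887, 0.926 and 1.09 CPM at 6 h. These last values are 27, 51 and 70 counts, so Mx2 at 6 h is the member measured with the fewest counts. Its groups did not overlap either. Mx2 fell by 1.18 ± 0.11 on the log2 scale at 2 h (-1.08 without replicate 2) and by 2.96 ± 0.13 at 6 h, with adjusted p = 5.60e-06 and 1.42e-08. At 6 h only 0.272% of the genes tested had a lower log2 fold change than Mx2, and 1.11% had a lower one than Mx1.

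Rsad2 encodes viperin, a radical-SAM enzyme that turns CTP into a chain-terminating nucleotide, and Cmpk2 encodes a mitochondrial nucleoside monophosphate kinase that can help supply CTP. The genes are neighbours that point away from each other, Rsad2 at chr12:26442746-26456452 on the minus strand and Cmpk2 at chr12:26469204-26479837 on the plus strand, 12.75 kb apart. Rsad2 was at 120.6, 118 and 118 CPM untreated and at 109, 84.6 and 123 CPM at 2 h. The groups overlapped, since replicate 3 at 2 h lay above every untreated library. The log2 fold change of -0.17 ± 0.12 did not pass (adjusted p = 0.309, 95% interval -0.45 to 0.11). At 6 h Rsad2 was at 44.7, 39.6 and 47.7 CPM, below every other library, a log2 fold change of -1.43 ± 0.13 (adjusted p = 2.06e-05).

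Cmpk2, in contrast to Rsad2, was called at 2 h, with 38.6, 40.2 and 36.4 CPM untreated and 18.8, 13.4 and 22.5 CPM at 2 h. All 2 h libraries lay below all untreated ones, and replicate 2 was the lowest. Cmpk2 fell by 1.09 ± 0.16 on the log2 scale (adjusted p = 6.62e-04), or by 0.90 without that library. At 6 h it was at 5.19, 5.19 and 5.84 CPM, and the log2 fold change was -2.82 ± 0.18 (adjusted p = 2.56e-06). That is a level 7.06-fold below untreated, close to the 7.80-fold of Mx2.

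Bst2 encodes tetherin, a membrane protein that holds budding virus particles at the cell surface, and lies at chr8:71534255-71537456 on the minus strand. It was at 300.2, 288 and 264 CPM untreated and at 303, 236 and 256 CPM at 2 h. Here the 2 h libraries spanned the untreated ones, and the log2 fold change of -0.10 ± 0.09 did not pass (adjusted p = 0.405, 95% interval -0.30 to 0.09). At 6 h it was at 169.9, 148 and 163 CPM, lower than in every other library by a log2 fold change of -0.83 ± 0.09 (adjusted p = 2.58e-05). Bst2 is also a surface marker of plasmacytoid dendritic cells. The defining marker of those cells, Siglech, had 0 to 3 counts in the untreated libraries, 1 in each 2 h library and 0 in each 6 h library. The sum of 8 plasmacytoid markers was 48.5 to 53.7 CPM untreated, 52.5 to 59.6 at 2 h and 48.9 to 51.4 at 6 h. Most of it came from Tcf4 and Spib, which other cells also express. Of 6 such markers tested, 1 was lower and 2 higher at 2 h (19.2% and 19.3% of all genes). At 6 h 2 were lower, Ccr9 (log2 fold change -0.89) and Spib (-0.35), and 0 higher (25.7% and 26.4% of all genes). The part of these markers in the fall of Bst2 was not tested.

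Ifitm2 and Ifitm3 encode small membrane proteins of endosomes that hinder fusion of incoming viruses. They lie 53.6 kb apart on the minus strand, Ifitm2 at chr7:140954837-140955987 and Ifitm3 at chr7:141009586-141010770. Ifitm3 was at 218, 206 and 181 CPM untreated and at 219, 166 and 164 CPM at 2 h. These groups overlapped, and the log2 fold change of -0.14 ± 0.13 did not pass (adjusted p = 0.446, 95% interval -0.44 to 0.16). At 6 h Ifitm3 was at 147, 116 and 131 CPM, below every other library. The log2 fold change was -0.62 ± 0.13 (adjusted p = 0.00422), the smallest of the 8 falls.

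Ifitm2 was the member called higher, with 43.0, 41.7 and 41.2 CPM untreated, 54.8, 55.2 and 46.8 CPM at 2 h, and 65.5, 63.4 and 61.1 CPM at 6 h. Each group lay above the one before it with no overlap. Ifitm2 rose by a log2 fold change of 0.32 ± 0.06 at 2 h (adjusted p = 0.00146) and of 0.59 ± 0.06 at 6 h (adjusted p = 7.88e-06). Neither change passed the test for more than 1.5-fold. Of the stretches of 50 bases in the Ifitm2 transcript, 48.5% also occur in other transcripts, so its counts depend on how reads were divided. Besides Ifitm3, the other sources were 6 gene models: Gm8865, Gm11951 and Gm2840 had 0 to 2 counts per library, while Gm45308, Gm45432 and Gm45717 have no value here. Gm45717 lies on the same strand and shares 268 exon bases with Ifitm2. Ifitm3 shared 10% of its stretches, and 3.3% of those of Ifitm2 were shared with Ifitm3.

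Samhd1 encodes a phosphohydrolase that lowers the pool of deoxynucleotides available to retroviruses in myeloid cells, and lies at chr2:157097533-157135265 on the minus strand. Its levels were 529.9, 524 and 528 CPM untreated and 515, 443 and 561 CPM at 2 h. The 2 h libraries lay on both sides of the untreated ones, and the log2 fold change of -0.06 ± 0.07 did not pass (adjusted p = 0.541, 95% interval -0.21 to 0.09). At 6 h the levels were 316, 302 and 294 CPM, well apart from the other groups. The log2 fold change was -0.80 ± 0.07 (adjusted p = 2.56e-06).

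Isg20 encodes an exonuclease that prefers single-stranded RNA and lies at chr7:78913424-78920396 on the plus strand. It was at 5.72, 5.81 and 5.87 CPM untreated and at 5.85, 4.61 and 4.81 CPM at 2 h. Replicate 1 at 2 h lay within the untreated range, and the log2 fold change of -0.19 ± 0.12 did not pass (adjusted p = 0.250, 95% interval -0.46 to 0.08). At 6 h Isg20 was at 1.64, 1.63 and 2.21 CPM, or 50, 90 and 142 counts. No 6 h library reached the other groups, and Isg20 fell by 1.64 ± 0.14 on the log2 scale (adjusted p = 1.42e-06).

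**Figure D2:**
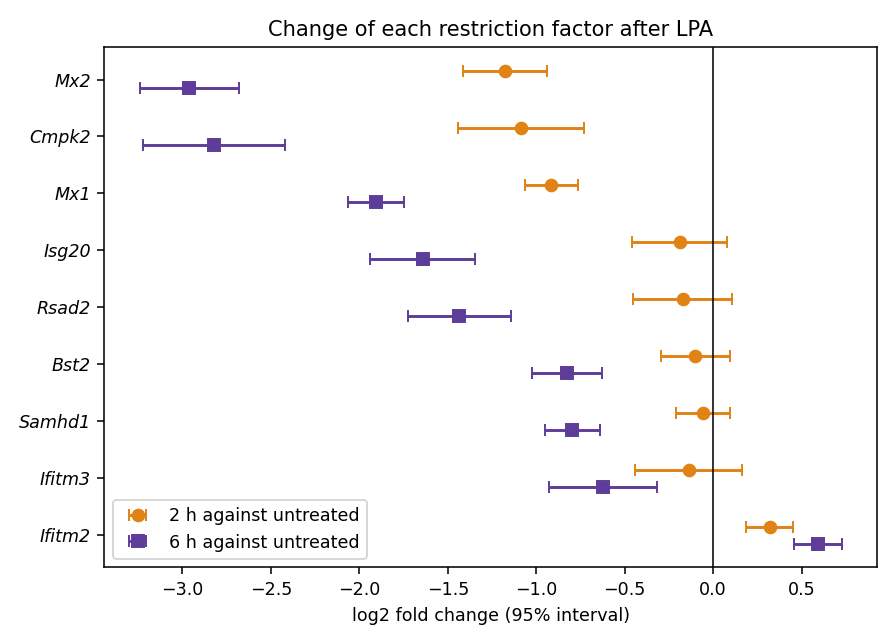
Log2 fold change of each member at 2 h and at 6 h against untreated, with 95% intervals from the edgeR fit over all 9 libraries, ordered by the value at 6 h. The intervals at 2 h include 0 for Isg20, Rsad2, Bst2, Samhd1 and Ifitm3, while none does at 6 h.

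The timing of the changes was examined by comparing 6 h with 2 h, which needs no untreated library. All 8 genes that were lower at 6 h than untreated were also lower at 6 h than at 2 h, beside 24.4% of all genes tested, and Ifitm2 was higher, beside 24.3%. All 9 thus passed, as did 48.7% of all genes in either direction, and their groups did not overlap (8 lower, beside 29.7% of all genes, and 1 higher, beside 29.2%). Isg20 (-1.45 ± 0.14), Rsad2 (-1.26 ± 0.13), Samhd1 (-0.74 ± 0.07) and Bst2 (-0.73 ± 0.09) made nearly all of their fall between these times. Mx2 (-1.79 ± 0.13), Cmpk2 (-1.73 ± 0.18) and Mx1 (-0.99 ± 0.07) continued a fall already measured at 2 h. Adjusted p for these 7 genes ran from 5.42e-06 for Mx1 to 1.30e-04 for Bst2. Ifitm2 rose by a further 0.27 ± 0.06 (adjusted p = 0.00295), and Ifitm3 fell by 0.48 ± 0.13 (adjusted p = 0.0157), a call that was lost with no filter on low counts (adjusted p = 0.0525). A change of more than 1.5-fold was called for 5 members, Mx1, Mx2, Rsad2, Cmpk2 and Isg20, beside 2.56% of all genes. Without replicate 2 at 2 h it was called for 7.

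Mx1, Mx2 and Cmpk2 were lower both at 2 h than untreated and at 6 h than at 2 h, a sequence found in 3.89% of all genes tested. Of the log2 change reached at 6 h, 48.1% was present at 2 h for Mx1, 39.7% for Mx2, 38.5% for Cmpk2 and 53.7% for Ifitm2. The same share was 22.5% for Ifitm3, 12.3% for Bst2, 12% for Rsad2, 11.6% for Isg20 and 7.48% for Samhd1. These shares have no error of their own, and the numerator did not pass the test for the last 5 genes.

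Whether the later step differed from the earlier one was tested gene by gene, as the log2 change from 2 h to 6 h minus that from untreated to 2 h. The later step covers 4 h and the earlier one 2 h, so a change at a constant rate would by itself make the later one larger. The later step was the more negative for 5 members. The share of all genes for this contrast is not reported here, so the count has no background beside it. Isg20 had the widest gap at -1.26 ± 0.22 (adjusted p = 7.97e-04), followed by Rsad2 at -1.09 ± 0.21 (0.00364), Samhd1 at -0.68 ± 0.12 (9.55e-04), Bst2 at -0.62 ± 0.15 (0.00819) and Mx2 at -0.61 ± 0.21 (0.0334). The call for Mx2 was lost with DESeq2 (adjusted p = 0.0653), with limma-voom (0.0750) and on leaving out any of 6 single libraries: untreated replicates 1 or 3, 2 h replicates 1 or 3, or 6 h replicates 1 or 2 (0.0596 to 0.139). Cmpk2 did not pass (-0.65 ± 0.28, adjusted p = 0.103), but did so without 2 h replicate 2 (-1.03, adjusted p = 7.57e-05) and with DESeq2 (0.0258). For Mx1 (-0.07 ± 0.12, 95% interval -0.33 to 0.19), Ifitm2 (-0.04 ± 0.11, -0.28 to 0.19) and Ifitm3 (-0.34 ± 0.23, -0.86 to 0.18) no difference between the steps was called.

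The steps were therefore also compared per hour, an alternative chosen after seeing the data. The later step was then the more negative for 2 members, beside 18.9% of all genes: Isg20 (-0.10 per h early and -0.36 per h late, difference -0.27 ± 0.08, adjusted p = 0.0233) and Samhd1 (-0.03 and -0.18, difference -0.15 ± 0.05, adjusted p = 0.0203). Rsad2 (difference -0.23 ± 0.08, adjusted p = 0.0553) and Bst2 (-0.13 ± 0.06, 0.107) did not pass per hour, but did so without 2 h replicate 2 (-0.33, adjusted p = 1.50e-04, and -0.19, 0.0221). Mx1 went the other way and changed more slowly after 2 h, from -0.46 to -0.25 per h (difference 0.21 ± 0.05, adjusted p = 0.00352), beside 17% of all genes with a less negative later step. Among 9 members, both counts are near the shares of all genes. No difference per hour was called for Mx2 (0.14 ± 0.08, 95% interval -0.02 to 0.31), Cmpk2 (0.11 ± 0.11, -0.13 to 0.35), Ifitm2 (-0.09 ± 0.04, -0.18 to -0.00) or Ifitm3 (-0.05 ± 0.09, -0.25 to 0.15). The Ifitm2 interval, which is not adjusted for the number of genes, ended just below 0, while its adjusted p was 0.103.

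**Figure D3:**
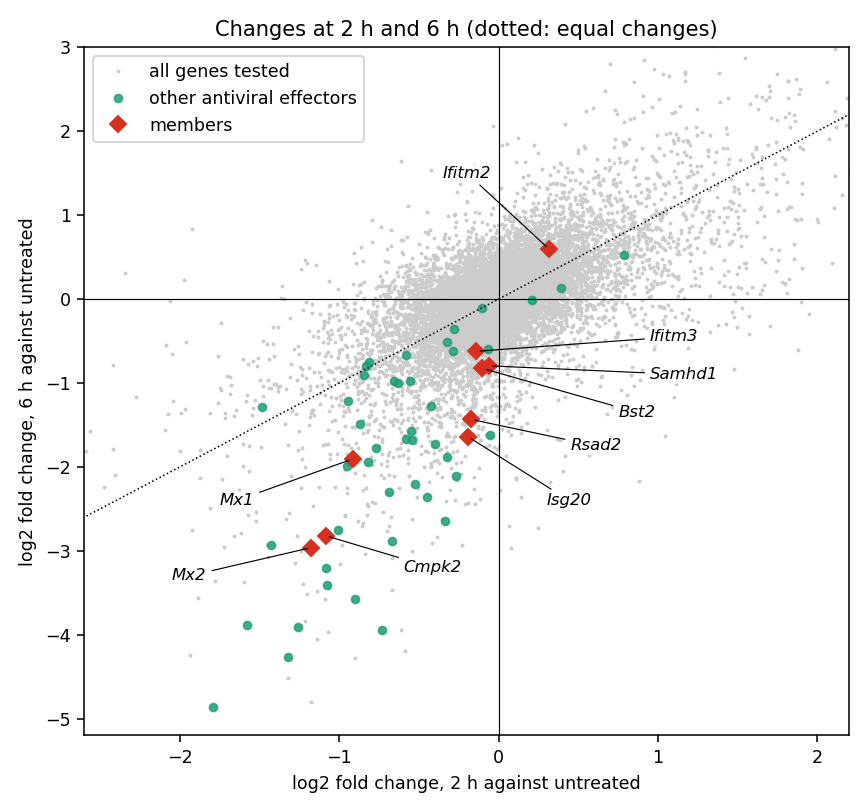
Log2 fold change at 6 h (vertical axis) against that at 2 h (horizontal axis), both against the same untreated libraries, for the members (red diamonds), the other antiviral effectors (green) and all genes tested (grey, with 125 genes outside the plotted range). Mx1, Mx2 and Cmpk2 lie far left and low, whereas Rsad2, Isg20, Bst2, Samhd1 and Ifitm3 lie near 0 at 2 h and below 0 at 6 h.

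Members with a partner were also compared within each library, where a ratio does not depend on the scaling between libraries. The log2 ratio of Mx2 to Mx1 was -3.90, -3.80 and -3.94 untreated, -4.12, -4.15 and -4.12 at 2 h, and -5.01, -5.10 and -4.76 at 6 h, lower in each later group. The log2 ratio of Cmpk2 to Rsad2 was -1.65, -1.55 and -1.70 untreated, -2.53, -2.66 and -2.46 at 2 h, and -3.11, -2.93 and -3.03 at 6 h. Most of that shift was present at 2 h (-0.92 of -1.39). The log2 ratio of Ifitm2 to Ifitm3 moved the other way, from -2.34, -2.30 and -2.14 untreated to -2.0, -1.59 and -1.81 at 2 h and -1.16, -0.87 and -1.10 at 6 h. The 3 groups were separate for all 3 ratios. In each of the 9 comparisons an exact two-sided permutation test gave p = 0.10, the smallest that 3 against 3 libraries allow, and 0.10 after adjustment over the 9, so none can pass 0.05.

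**Figure D4:**
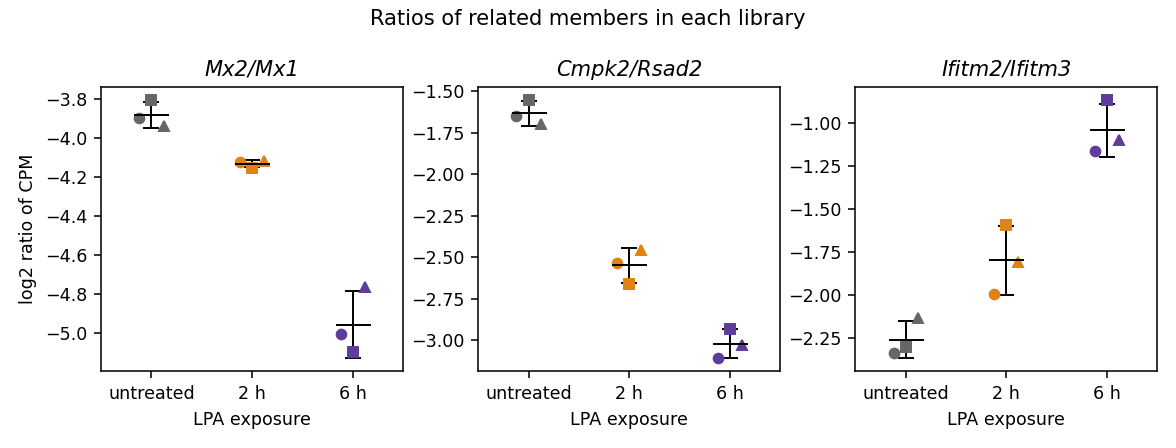
Log2 ratio of CPM between partner genes in each library, by LPA exposure, with circles, squares and triangles for replicates 1, 2 and 3 and bars for the mean ± SD (n = 3). The ratios of Mx2 to Mx1 and of Cmpk2 to Rsad2 decline from untreated to 6 h and that of Ifitm2 to Ifitm3 climbs by 1.22, with no overlap between groups.

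Per length of the merged exons, the untreated level was highest for Bst2 (359 ± 23.0 CPM per kb, SD, n = 3) and Ifitm3 (297 ± 27.7). Ifitm2 (64.1 ± 1.46), Samhd1 (57.6 ± 0.326), Mx1 (30.9 ± 0.351), Rsad2 (27.4 ± 0.339) and Cmpk2 (12 ± 0.596) followed. Mx2 (3.17 ± 0.161) and Isg20 (3.12 ± 0.0385) came last and did not differ beyond their spread. At 6 h Bst2 (202 ± 14.4) and Ifitm3 (193 ± 22.8) no longer differed beyond theirs. Next came Ifitm2 (96.7 ± 3.42), Samhd1 (33.2 ± 1.21), Rsad2 (10.2 ± 0.945), Mx1 (8.22 ± 0.447), Cmpk2 (1.69 ± 0.117), Isg20 (0.983 ± 0.178) and Mx2 (0.400 ± 0.0446). Rsad2 thus lay above Mx1, and Isg20 above Mx2, in the order at 6 h, as both also did at 2 h. The merged exons join all transcripts of a row (10 for Samhd1, 5 for Isg20, 1 for Mx2). The order between genes therefore depends on this choice of length.

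The surrounding pathway was described with other antiviral effectors, of which 45 of 47 could be tested. At 2 h 36 were lower and 3 higher (19.2% and 19.3% of all genes tested), at 6 h 41 and 1 (25.7% and 26.4%), and between the times 37 and 0 (24.4% and 24.3%). Their median log2 fold change was -0.66 at 2 h and -1.68 at 6 h. Xaf1, a pro-apoptotic interferon-stimulated gene, fell from 34.4 ± 0.229 to 6.99 ± 0.466 CPM at 6 h, and Tor3a, an ATPase gene, from 129 ± 6.37 to 65.6 ± 0.461 CPM. The row of the DNA exonuclease gene Trex1 fell from 59.0 ± 3.56 to 15.4 ± 0.697 CPM, but it also holds Atrip. Plscr1, a phospholipid scramblase gene, did not pass at 6 h, with 28.5 ± 1.01 CPM untreated and 28.2 ± 0.509 CPM then. Among the genes higher at 2 h, named after their values were seen, were Trim25 (0.79 ± 0.05), a ubiquitin ligase gene of RNA sensing, and Plscr1 (0.21 ± 0.05). At 6 h Trim25 (0.52 ± 0.05) was the one effector called higher, as Ifitm2 was among the members. Between the times, however, Trim25 was called lower (-0.27 ± 0.05), whereas Ifitm2 rose further (0.27 ± 0.06).

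**Figure D5:**
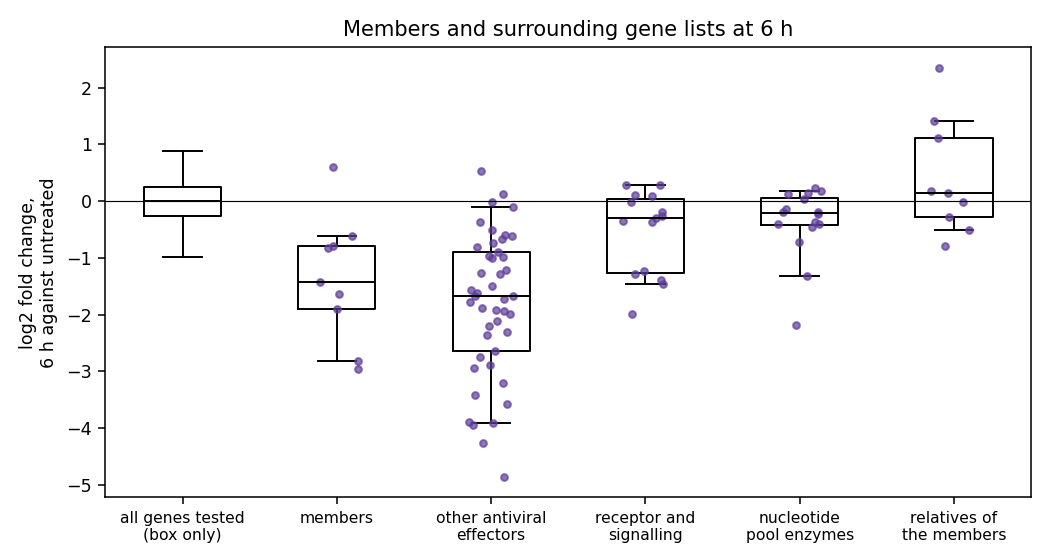
Log2 fold change at 6 h against untreated for the members and the 4 surrounding gene lists, with a point per gene. Boxes span the quartiles with the median as a line. Whiskers end at a low and a high percentile of each group of genes, so the most extreme genes lie beyond them. The median of the members is -1.43 and that of the other antiviral effectors -1.68, while the box of all genes tested lies around 0.01.

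Of 16 genes of interferon reception and signalling, 15 could be tested, with 9 lower and 1 higher at 2 h (19.2% and 19.3% of all genes), 10 and 2 at 6 h (25.7% and 26.4%), and 6 and 3 between the times (24.4% and 24.3%). The median was -0.30 at both times. Ifnb1, which encodes interferon beta, had at most 5 counts in any library and none at 6 h, and was not tested. The receptor gene Ifnar1 had a log2 fold change of -0.01 ± 0.04 at 6 h, and Ifnar2 rose by 0.28 ± 0.05. Stat2 (-1.24 ± 0.06) and Irf9 (-1.29 ± 0.07), whose products are in the ISRE-binding complex named above, fell at 6 h. Irf7 (-1.39 ± 0.12), which amplifies interferon production, and Usp18 (-2.0 ± 0.08), which restrains the receptor, fell as well. Usp18, Stat2 and Irf9 were already lower at 2 h (-1.21, -0.78 and -0.37), while Irf7 did not pass then (-0.29).

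Because Samhd1, Cmpk2 and Rsad2 act on nucleotides, 16 enzymes of the nucleotide pool were described too. At 2 h 4 were lower and 2 higher, shares near those of all genes (19.2% and 19.3%), and only 3 in all passed with no filter on low counts or without untreated replicate 3 or 2 h replicate 1. At 6 h 10 were lower and 2 higher (25.7% and 26.4% of all genes), and between the times 9 and 1 (24.4% and 24.3%). Dck, the deoxycytidine kinase gene that salvages deoxynucleosides, was at 96.3 ± 1.63 CPM untreated, 121 ± 27.9 at 2 h and 21.1 ± 0.843 at 6 h, a log2 fold change of -2.18 at 6 h. Nme1 (-0.45 ± 0.06), a nucleoside diphosphate kinase gene, and Rrm2 (-0.72 ± 0.11), a ribonucleotide reductase subunit gene, also fell at 6 h, while Dguok (0.03 ± 0.07), the mitochondrial deoxyguanosine kinase gene, did not pass. The median of these enzymes at 6 h was -0.21.

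Among 9 tested relatives of the members, 2 were lower and 4 higher at 6 h, beside 25.7% and 26.4% of all genes. At 2 h 3 were lower and 4 higher, beside 19.2% and 19.3% (4 in all without untreated replicate 2 or 3), and between the times 2 and 4, beside 24.4% and 24.3% (3 in all without 2 h replicate 3 or 6 h replicate 1). Ifitm1, a family member of the same cluster as Ifitm2 and Ifitm3, rose from 6.29 ± 0.702 to 9.86 ± 2.32 CPM at 2 h and 16.9 ± 1.09 CPM at 6 h, with log2 fold changes of 0.66 and 1.42. Ifitm10 (1.11), Dnm3 (2.35), a dynamin gene, and Cmpk1 (0.18), the cytosolic counterpart of Cmpk2, were also higher at 6 h, with at most 35 counts per library for Dnm3 and 27 for Ifitm10. Aen (-0.80), a nuclease gene related to Isg20, and Dnm1l (-0.28) were lower. Dnm2 (-0.02) and Ifitm6 (-0.51) did not pass at 6 h. Isg20l2 (0.14) did not pass either, but did so with the replicate block (adjusted p = 0.0489), with total counts (0.0179), with only the 6 libraries compared (0.0219) and without 2 h replicate 3 (0.0244).

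The gene with the most similar profile was found for each member among 9688 genes with a mean of at least 5 CPM, as the root-mean-square distance of centred log2 CPM over the 9 libraries. The nearest gene was Gbp5, a guanylate-binding protein gene, for Mx1 (0.0816), and Oasl2, of the oligoadenylate synthetase family, for both Mx2 (0.151) and Cmpk2 (0.122). For Isg20 it was Dhx58 (0.150), which encodes the RNA sensor LGP2. The nearest genes of the other members were Slamf9 for Rsad2 (0.0433), Nqo1 for Samhd1 (0.0225), Stk39 for Bst2 (0.0777), Wnk2 for Ifitm3 (0.0882) and Rtl5 for Ifitm2 (0.0351). Each pair shares all 9 libraries and their depth, so the distances describe these libraries only.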

How the data were processed

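The values are estimated counts per gene, which the authors deposited as whole numbers with no scaling for depth. RSEM 1.2.3, DESeq2 and the build mm10 are named in the list of tools, per the submitters' processing notes, with the aligner and annotation not given in the sources used here. RSEM divides reads that match several transcripts, and per the labels' protocols the libraries were non-stranded, so overlapping genes cannot be told apart by strand; no member had an overlap on the opposite strand. Rows, named by transcript lists, were matched to GENCODE M21 genes of GRCm38, the assembly that mm10 names (37776 rows matched 1 gene; 935 rows, with 0.1405% of the counts, matched none). Promoter sequences came from RefSeq.

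Low genes were removed with filterByExpr (at least 10 counts, total at least 15), and the rest were scaled with TMM (factors 0.974 to 1.03) and fitted over all 9 libraries with edgeR 4.0.16 in R 4.3.3 (glmQLFit, robust; glmQLFTest; glmTreat at 1.5-fold), with no covariate and Benjamini-Hochberg adjustment over all 14363 genes at 0.05. The common biological coefficient of variation was 0.0747. Chi-square per degree of freedom between replicates was 7.20 to 33.3, so no library repeated another. The scripts were tested on simulated data. Each SD is over 3 libraries.

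The replicate numbers are shared by the groups. After subtracting group means, libraries of the same number correlated at 0.25 to 0.42 for 2 h against untreated and at 0.28 to 0.36 for 6 h against untreated, so there the numbers were taken to pair the libraries, from the data and not from the labels. Between 6 h and 2 h the values were 0.083 to 0.23. The reported fits and ratio tests did not use this pairing. It entered only as the replicate block among the alternatives.

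The members and lists were chosen with earlier results of these data known. Beyond the members, the text names from 3 lists (other antiviral effectors, interferon reception and signalling, nucleotide pool enzymes) the 3 genes with the smallest p and the 1 with the largest p at 6 h, also Ifnb1, Ifnar1, Ifnar2, Stat2, Irf7 and Irf9, every tested relative, and the nearest gene by profile; some genes of these lists are not reported here. Alternatives were DESeq2 size factors, total counts, upper quartile scaling, DESeq2 1.42.0, limma-voom (limma 3.58.1), no filter, a filter at a mean of 10 counts, the replicate block, only the 6 libraries compared, each library left out, and rows summed per symbol; the steps per hour, with and without 2 h replicate 2, were added after seeing the data.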

Additional observations from a re-analysis of the deposited data

Results flagged for a closer look

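The effect of LPA on each member was compared between the times, and the difference itself was tested as 6 h against 2 h (quasi-likelihood test of edgeR, adjusted p under 0.05). Both effects use the same 3 untreated libraries, which cancel out of the difference. No untreated cells are labelled with a time, so longer LPA exposure and longer culture cannot be told apart. All 9 members are listed because that difference passed. The LPA effect at 6 h minus that at 2 h, on the log2 scale, was -0.99 for Mx1, -1.79 for Mx2, -1.26 for Rsad2, -1.73 for Cmpk2, -0.73 for Bst2, -0.48 for Ifitm3, -0.74 for Samhd1 and -1.45 for Isg20. For Ifitm2 it was 0.27. In each of these 9 genes the 3 libraries at 6 h lay on one side of the 3 at 2 h. The same test called 48.7% of all genes.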

How the results depend on the processing

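Over 513 recalculated values of the members in the 3 comparisons, 512 kept their direction where called and their side of the threshold, and the exception was Ifitm3 between the times. In the fit with a replicate block, 4 members were called at 2 h, 9 at 6 h and 9 for 6 h against 2 h, as without it, and this pairing changed no call of a member in any of the 3 comparisons or between the steps. Members changed more than 1.5-fold numbered 2 to 3 at 2 h, 5 to 7 at 6 h and 5 to 7 between the times. Of 128 recalculated counts of members 127 stayed within 1.5 times the reported ones. The exception was the comparison of the steps, where 3 members were called per hour in place of 5. Per hour the difference between the steps turned positive for Mx1 (0.21, and 0.15 without 2 h replicate 2) and Mx2 (0.14 and 0.070). Cmpk2 turned positive as well (0.11) but stayed negative without that library (-0.03), with neither per-hour value called. The later step is the longer one. The number called per hour without 2 h replicate 2 was 5. Of the list counts, nucleotide pool enzymes called at 2 h fell from 6 to 3 with no filter on low counts and ran from 3 to 6 when single libraries were left out. Relatives called ran from 4 to 7 at 2 h and from 3 to 6 between the times when single libraries were left out. The causes were not tested. Of 1824 recalculated values of other named genes 1757 kept their call, and 0 called values reversed. With 3 libraries a group, Mx2 and Isg20 at 6 h rest on the fewest counts, 27 to 142.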
